A study of Mus musculus with 11 samples.

Results

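The hair bundle genes described here encode the sensory transduction machinery of the inner ear: the channel subunits Tmc1 and Tmc2, the channel partners Lhfpl5, Tmie and Cib2, the tip-link cadherins Pcdh15 and Cdh23, the bundle protein Loxhd1, and the scaffolds Ush1c (harmonin) and Ush1g (SANS). They were chosen by gene symbol for their known roles, and 10 of 10 were found among the 18667 genes with values in both tables. RNA-Seq was performed on 5 cochlea samples from Atf6+/+ mice and 6 from Atf6-/- mice, with 1 library for each sample. Both genotypes were young adult littermates of both sexes on the C57BL/6J background, so every library carries the Cdh23ahl allele of that strain, and the Atf6-/- mice are constitutive knockouts of ATF6, a sensor of the unfolded protein response, so the loss is not restricted to hair cells. Each value is an FPKM, a fragment count scaled by gene length and sequencing depth, so levels of different genes can be set side by side. Depth in reads is unknown from these values, which limits how far low levels can be told apart.

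Hair cells carry rows of actin-filled stereocilia. Fine tip links made of CDH23 and PCDH15 join each stereocilium to its taller neighbor, and deflection of the bundle pulls on the link and opens a channel that contains TMC1 or TMC2 near the lower end of the link. LHFPL5, TMIE and CIB2 bind this channel and are needed for its function or delivery, and harmonin and SANS anchor the upper end of the link. Loss of function of most of these genes causes deafness in mice and humans.

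Atf6 itself was measured first as a check of the labels. It was at 9.52 ± 1.11 FPKM (SD, n = 5) in the Atf6+/+ libraries and at 4.27 ± 0.28 (SD, n = 6) in the Atf6-/- libraries, a log2 fold change of -1.13 (adjusted p = 5.17e-05, limma). The groups did not overlap. Summed FPKM ranged from 462000 to 537900 over the 11 libraries. Markers of the cochlea were present, including Coch at 2024 to 3731 FPKM, which marks the spiral ligament. The strial markers Kcne1 and Dct were at 0.10 and 0.84 FPKM in Atf6+/+ replicate 4, far below the 14.1 to 21.5 and 56.8 to 76.4 FPKM of the other Atf6+/+ libraries, and in Atf6-/- they ran from 3.39 to 22.8 and from 8.35 to 80.2.

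None of the 10 genes passed a threshold for a difference between genotypes. The test was limma's, on log2(FPKM + 0.1) of 16169 genes. At a Benjamini-Hochberg adjusted p under 0.05, 0 of 10 were called, against 0.068% of all genes tested. By the looser rule of an unadjusted p up to 0.05 together with a log2 fold change over 0.05 in size, called the unadjusted rule here, 0 of 10 were called, against 9.85% of all genes (4.48% higher and 5.37% lower in Atf6-/-). The values of the genotypes were separated in 0 of 10, against 1.25% of all genes. In the fit 7 of the 10 estimates were above 0 and 3 below, with a median log2 fold change of 0.10 beside -0.013 for all genes tested. That median rested on single libraries, from -0.019 without Atf6+/+ replicate 3 to 0.29 without Atf6+/+ replicate 1, and without Atf6+/+ replicate 4 it was 0.0013. It was -0.067 with a blood marker score and -0.21 with a hair cell marker score as a covariate. With each library rescaled to a common sum (TPM), 1389 genes were higher and 439 lower by the unadjusted rule, against 724 and 868 as deposited. Whole cochleae were sequenced, so fewer hair cells and less RNA per hair cell cannot be told apart.

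**Figure D1:**
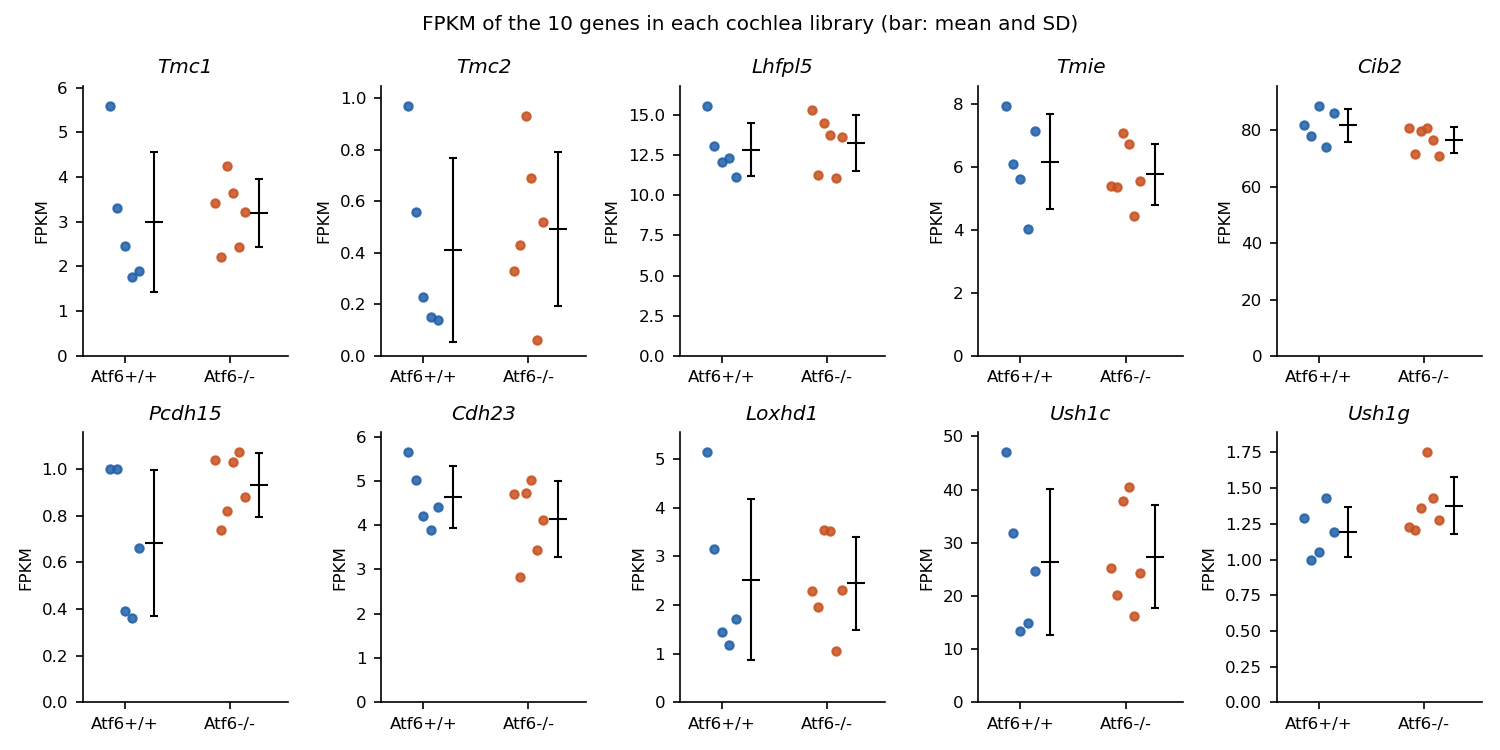
FPKM of each gene in each library, with 1 panel per gene, FPKM from 0 on each vertical axis, Atf6+/+ (n = 5) in blue and Atf6-/- (n = 6) in orange, and bars for the mean and SD. The groups overlap in every panel, and Tmc1, Tmc2, Loxhd1 and Ush1c spread several-fold among the Atf6+/+ libraries, while Cib2 stays between 70.7 and 88.6.

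The start regions of these genes differ widely in base composition, so those of 4 members are shown: Tmc1, Ush1c and Lhfpl5, the latter pair each correlated with Tmc1 across libraries, and Cib2, which correlated with no other member. Each line gives the 250 bases before the annotated start, 5′ to 3′ on the strand of the gene, from the RefSeq promoter table for GRCm38.p6, an older build than the GRCm39 of the FPKM tables. Capitals mark every CG dinucleotide. The regions lie at chr7:46238491-46238740 (minus strand) for Ush1c, chr19:20954203-20954452 (minus strand) for Tmc1, chr17:28575469-28575718 (plus strand) for Lhfpl5 and chr9:54560191-54560440 (minus strand) for Cib2.
Ush1c: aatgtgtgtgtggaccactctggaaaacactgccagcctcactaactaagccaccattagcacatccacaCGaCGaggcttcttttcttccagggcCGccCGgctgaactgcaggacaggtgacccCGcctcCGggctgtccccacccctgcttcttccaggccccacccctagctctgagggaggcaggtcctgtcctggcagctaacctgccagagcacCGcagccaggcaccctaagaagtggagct
Tmc1: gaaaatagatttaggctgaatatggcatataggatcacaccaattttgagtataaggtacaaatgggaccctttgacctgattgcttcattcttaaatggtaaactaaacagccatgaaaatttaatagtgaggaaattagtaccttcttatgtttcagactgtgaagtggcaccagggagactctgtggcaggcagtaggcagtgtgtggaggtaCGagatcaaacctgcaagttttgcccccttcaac
Lhfpl5: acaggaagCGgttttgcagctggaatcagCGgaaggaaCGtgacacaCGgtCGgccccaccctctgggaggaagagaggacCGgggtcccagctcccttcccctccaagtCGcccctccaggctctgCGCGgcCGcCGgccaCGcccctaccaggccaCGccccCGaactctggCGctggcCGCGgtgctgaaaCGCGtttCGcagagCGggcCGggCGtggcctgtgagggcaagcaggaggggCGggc
Cib2: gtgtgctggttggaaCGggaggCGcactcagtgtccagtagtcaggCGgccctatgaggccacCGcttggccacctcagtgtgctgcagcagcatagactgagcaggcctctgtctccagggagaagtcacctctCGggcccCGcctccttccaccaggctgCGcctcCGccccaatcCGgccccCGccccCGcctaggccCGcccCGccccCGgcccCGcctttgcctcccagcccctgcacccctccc
These 250 bases hold 7 CG dinucleotides in Ush1c, 1 in Tmc1, 24 in Lhfpl5 and 15 in Cib2. Over the whole 300-base window, which adds 50 bases after the start, Tmc1 is 42% GC and Lhfpl5 is 70.7%, beside a median of 52.7% for 32851 promoters. In total 7 of the 10 genes were in the table. Motifs associated with ATF6 were searched on both strands of the 300-base windows. The ER stress response element, CCAAT, 9 bases of any kind and CCACG, was in 0 of 7 and in 0.119% of all promoters. The motif TGACGTG was in 0 of 7 and in 2.01% of all promoters. The letters CCACG alone, which every ER stress response element contains and which a TGACGTG followed by G contains on the other strand, were in 3 of 7 (Tmie, Pcdh15 and Lhfpl5) and in 32.8% of all promoters. These are matches of letters and not mapped sites.

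The levels of the 10 genes spanned 173-fold. They are levels in whole cochleae, which hold many other cells, and not levels within hair cells. Cib2, a calcium- and integrin-binding protein, was the highest at a mean of 78.9 FPKM over 11 libraries, followed by Ush1c at 26.9, Lhfpl5 at 13.1, Tmie at 5.96, Cdh23 at 4.37, Tmc1 at 3.11, Loxhd1 at 2.48, Ush1g at 1.29, Pcdh15 at 0.817 and Tmc2 at 0.456 FPKM. Each neighbor in this order differed from the next within libraries. In 6 of the 9 neighboring pairs the order held in 11 of 11 libraries (exact sign-flip permutation p = 0.000977, adjusted p = 0.00147, the smallest the test allows). The weakest pair was Loxhd1 over Ush1g, which held in 9 of 11 libraries (exact sign-flip permutation adjusted p = 0.00684). The order was taken from the same values that were tested, so these p-values overstate the support for it.

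Tmc1, the pore subunit of mature hair cells, was at 5.59, 3.30, 2.46, 1.76 and 1.90 FPKM in Atf6+/+ replicates 1 to 5. In the 6 Atf6-/- libraries its lowest value was 2.22, its median 3.33 and its highest 4.24 FPKM. The highest Atf6+/+ library lay above every Atf6-/- library and the lowest Atf6+/+ libraries lay below, so the groups overlapped. The log2 fold change was 0.18 (SE 0.27, 95% interval -0.41 to 0.77, adjusted p = 0.839, limma). Tmc2, the subunit that cochlear hair cells use mainly early in development, was the lowest of the 10 genes. It was at 0.97, 0.56, 0.23, 0.15 and 0.14 FPKM in Atf6+/+ and between 0.06 and 0.93 (median 0.475) in Atf6-/-. Its log2 fold change was 0.27 with a 95% interval of -0.82 to 1.37 (adjusted p = 0.878, limma), a fold between 0.565 and 2.58.

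Lhfpl5, a membrane partner that links the channel to PCDH15, was steady at 15.56, 13.10, 12.07, 12.35 and 11.15 FPKM in Atf6+/+ and between 11.07 and 15.29 (median 13.7) in Atf6-/-. The log2 fold change was 0.043 with a 95% interval of -0.18 to 0.27 (adjusted p = 0.906, limma), a fold between 0.882 and 1.203. Tmie, a channel subunit needed for transduction, was at 7.95, 6.10, 5.64, 4.03 and 7.17 FPKM in Atf6+/+ and between 4.45 and 7.10 (median 5.48) in Atf6-/-. Its log2 fold change was -0.077 (95% interval -0.44 to 0.28, adjusted p = 0.897, limma). Cib2 was at 81.79, 78.04, 88.60, 74.13 and 86.03 FPKM in Atf6+/+ and between 70.71 and 80.80 (median 78.1) in Atf6-/-. It was the most even of the 10 genes, with a CV of 7.16% in Atf6+/+ and 5.97% in Atf6-/-. Its log2 fold change of -0.092 had a 95% interval of -0.22 to 0.033 (adjusted p = 0.589, limma), and 3 of 5 Atf6+/+ libraries lay above the highest Atf6-/- library. Without Atf6+/+ replicate 4, the library low in strial markers, the log2 fold change was -0.13 and passed the unadjusted rule (adjusted p = 0.589, limma). Under TPM the log2 fold change of Cib2 was -0.035.

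The tip-link genes had estimates of opposite sign. Pcdh15, the lower half-link cadherin, was at 1, 1, 0.39, 0.36 and 0.66 FPKM in Atf6+/+ and between 0.74 and 1.07 (median 0.955) in Atf6-/-. All 6 Atf6-/- libraries lay above 3 of the 5 Atf6+/+ libraries, and 3 of them lay above the highest. The log2 fold change was 0.49 (SE 0.25, 95% interval -0.047 to 1.02, p = 0.0703, adjusted p = 0.522, limma; exact permutation p = 0.104). Without Atf6+/+ replicate 1 or replicate 2 its unadjusted p fell to 0.0232 and 0.0237 (adjusted p = 0.391 and 0.423, limma). Without Atf6+/+ replicate 3 or 4 the log2 fold change was 0.34 or 0.32 (adjusted p = 0.726 and 0.723, limma). It was 0.22 with a pseudocount of 1 and 0.19 with the hair cell marker score as a covariate. Cdh23, the upper half-link cadherin, was at 5.64, 5.03, 4.20, 3.89 and 4.41 FPKM in Atf6+/+ and between 2.83 and 5.03 (median 4.41) in Atf6-/-, with a log2 fold change of -0.17 (95% interval -0.50 to 0.15, adjusted p = 0.702, limma).

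Within each library, the ratio of Pcdh15 to Cdh23 (each FPKM + 0.1) was 0.192, 0.214, 0.114, 0.115 and 0.169 in Atf6+/+. In Atf6-/- it lay between 0.191 and 0.331, and all 6 libraries were above the Atf6+/+ mean on the log2 scale. The ranges overlapped by the values of 2 Atf6+/+ libraries. The log2 ratio was 0.66 higher in Atf6-/- (exact permutation p = 0.0108, adjusted over 4 ratios 0.0433). The call was lost in 8 of 11 fits that left out 1 library, those without Atf6+/+ replicate 3, 4 or 5 or without Atf6-/- replicate 1, 2, 4, 5 or 6, where the difference was between 0.55 and 0.69. With a pseudocount of 1 in place of 0.1 the difference was 0.36. The ratio was not run with a marker score as a covariate. With the blood marker score as a covariate, the log2 fold changes of the genes were 0.084 for Pcdh15 and -0.30 for Cdh23. The other 3 ratios did not pass, with log2 differences of -0.14 for Lhfpl5 to Tmc1 (exact permutation p = 0.541), -0.26 for Tmie to Tmc1 (exact permutation p = 0.290) and 0.058 for Ush1g to Ush1c (exact permutation p = 0.868).

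**Figure D2:**
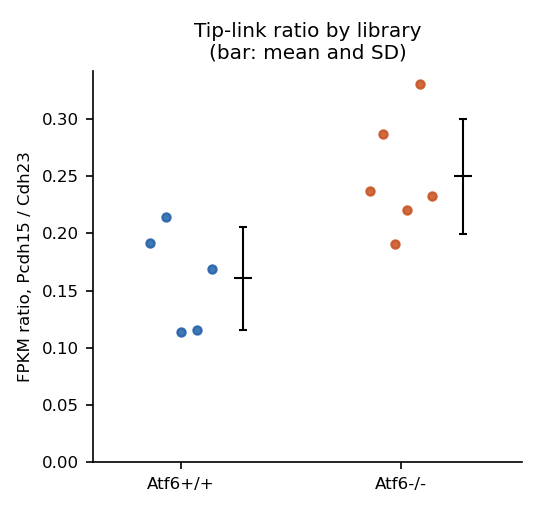
Ratio of Pcdh15 to Cdh23, each as FPKM + 0.1, on a linear axis from 0, with 1 point per library and bars for the mean and SD (Atf6+/+ n = 5, Atf6-/- n = 6). The Atf6-/- libraries run from 0.191 to 0.331 and the Atf6+/+ libraries from 0.114 to 0.214.

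Loxhd1, a stereociliary protein with repeated PLAT domains, was at 5.13, 3.14, 1.45, 1.17 and 1.72 FPKM in Atf6+/+ and between 1.05 and 3.54 (median 2.30) in Atf6-/-. The log2 fold change was 0.064 with a 95% interval of -0.77 to 0.89 (adjusted p = 0.968, limma). Ush1c, the harmonin scaffold at the upper tip-link density, was at 46.97, 31.85, 13.40, 15.01 and 24.71 FPKM in Atf6+/+ and between 16.32 and 40.43 (median 24.8) in Atf6-/-. The highest Atf6+/+ library was 3.51 times the lowest, and the log2 fold change was 0.14 (95% interval -0.57 to 0.85, adjusted p = 0.907, limma). Ush1g, which binds harmonin, was even at 1.29, 1, 1.05, 1.43 and 1.19 FPKM in Atf6+/+ and between 1.21 and 1.75 (median 1.32) in Atf6-/-. Its log2 fold change was 0.19 (95% interval -0.088 to 0.47, adjusted p = 0.612, limma), and 3 of 5 Atf6+/+ libraries lay below the lowest Atf6-/- library. That estimate ran from 0.13 to 0.26 on leaving out 1 library and was 0.12 with a pseudocount of 1.

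**Figure D3:**
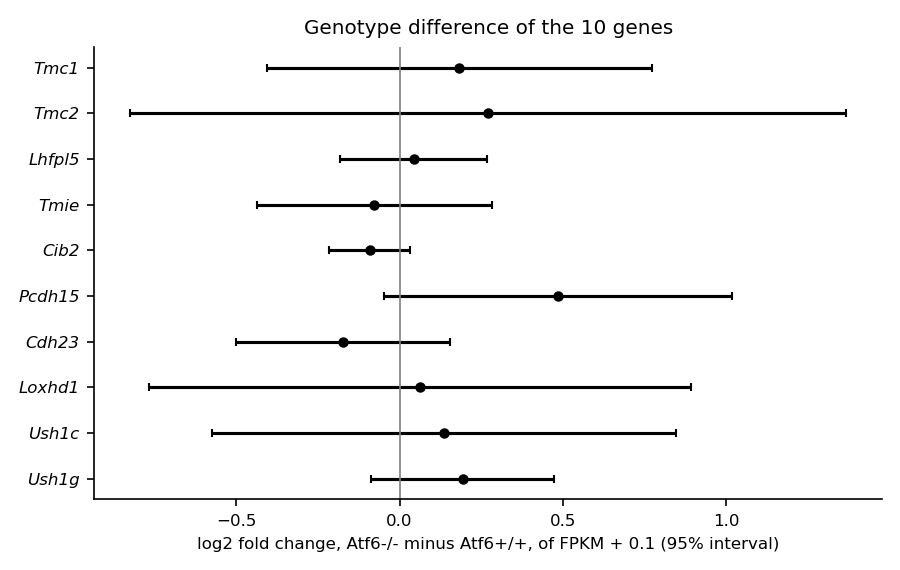
Log2 fold change of each gene, Atf6-/- minus Atf6+/+, of FPKM + 0.1, with points for the limma estimate and lines for its 95% interval. All 10 intervals cross 0, and that of Tmc2 is the widest, from -0.82 to 1.37.

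The pooled SD of log2 values within genotypes was 0.94 for Tmc2, 0.72 for Loxhd1, 0.63 for Ush1c, 0.51 for Tmc1 and 0.43 for Pcdh15, beside a median of 0.15 over all genes tested. It was 0.19 for Lhfpl5, 0.19 for Ush1g and 0.095 for Cib2. Apart from Pcdh15, these variable genes correlated with one another across the 11 libraries. Atf6+/+ replicate 1 ranked first of 11 libraries for Tmc1, Tmc2, Lhfpl5, Tmie, Cdh23, Loxhd1 and Ush1c. Atf6-/- replicate 5 ranked last for Tmc2, Lhfpl5 and Loxhd1 but first for Pcdh15. Among outer hair cell markers, Ocm and Slc26a5 were highest of the 11 libraries in Atf6-/- replicate 5, at 106 and 4.11 FPKM. Chrna9 and Chrna10 were at 1.60 and 3.76 FPKM there, the lowest of the Atf6-/- libraries. Otog and Tecta were named from the 9 supporting cell genes after their values were seen, so they do not stand for that list. Both were high in Atf6+/+ replicate 1 and low in Atf6-/- replicate 5. Otog, a protein of the membranes that overlie the sensory cells, was at 42.95, 29.13, 12.32, 12.24 and 19.87 FPKM in Atf6+/+, and in Atf6-/- it was lowest in replicate 5 at 10.96 and highest in replicate 4 at 40.91. Tecta, of the tectorial membrane, was also highest in Atf6+/+ replicate 1 (9.52 FPKM) and lowest in Atf6-/- replicate 5 (0.38 FPKM). Of the vestibular markers, Oc90 was at 0.66 FPKM in Atf6+/+ replicate 1, 1.56 in Atf6-/- replicate 4 and 0.03 in Atf6-/- replicate 5, while Otop1 stayed between 6.58 and 9.54. The summed level of the supporting cell list was 332.2 to 581.9 FPKM in Atf6+/+ and 422.9 to 592.8 in Atf6-/-. The part of these markers in the members' spread was not tested.

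Among the 45 pairs of members, 15 correlated across the 11 libraries at an adjusted permutation p under 0.05, and none of these was negative. Loxhd1 and Ush1c had the highest Pearson r, 0.948 (permutation p = 2e-05, adjusted 0.0009), with a Spearman rho of 0.909 (permutation p = 0.00029, adjusted 0.00652) and an r of 0.942 without the 2 libraries farthest from the median of Loxhd1. Tmc2 and Loxhd1 followed at r = 0.941 (permutation p = 5e-05, adjusted 0.00113), with a rho of 0.964 (permutation p = 1e-05, adjusted 0.00045) and an r of 0.954 without 2 libraries. Tmc1 and Loxhd1 had an r of 0.886 (permutation p = 0.00038, adjusted 0.0057) and a rho of 0.873 (permutation p = 0.00089, adjusted 0.0128), and the r was 0.779 without 2 libraries. Loxhd1 had 6 such partners, Tmc1 and Ush1c 5 each, Tmc2, Lhfpl5 and Cdh23 4 each and Tmie 2. Cib2, Pcdh15 and Ush1g had 0. Within Atf6+/+ alone, Pcdh15 had an r of 0.76 with Tmc1, 0.80 with Tmc2, 0.92 with Loxhd1 and 0.96 with Ush1c. Within Atf6-/- alone the values were 0.15, -0.50, -0.25 and -0.035, and the difference was not tested. The count of pairs was 2 without Atf6+/+ replicate 1 and 9 without Atf6-/- replicate 3.

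**Figure D4:**
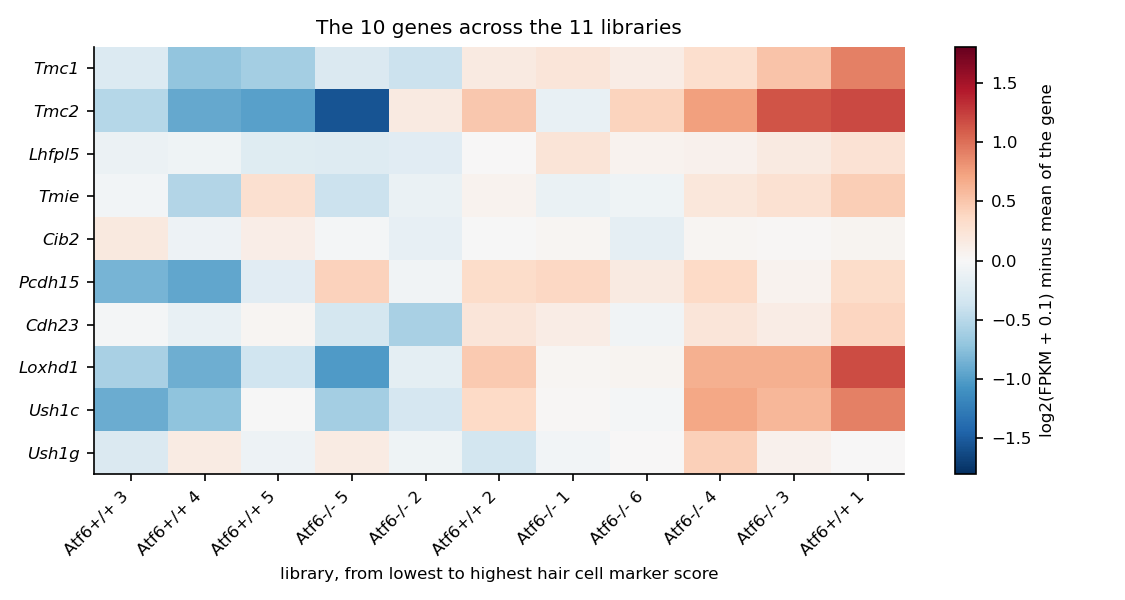
Log2(FPKM + 0.1) of each gene minus its mean over 11 libraries, in color, with libraries ordered from the lowest to the highest hair cell marker score. Tmc1, Tmc2, Loxhd1 and Ush1c go from blue to red together toward Atf6+/+ replicate 1, while Cib2 and Ush1g stay pale throughout.

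The members were next set against a hair cell marker score, the mean log2(FPKM + 0.1) of 16 marker genes that include none of the 10. The lowest and highest scores were 1.59 and 2.98 among Atf6+/+ libraries, against 2.28 and 2.73 among Atf6-/- libraries, and the means differed by 0.34. Of 10 relations computed, 6 had an adjusted permutation p under 0.05 for Pearson's r (Tmc1, Tmc2, Lhfpl5, Pcdh15, Loxhd1 and Ush1c). Across all libraries Tmie, Cib2, Cdh23 and Ush1g did not. Within Atf6+/+ and Atf6-/- taken apart, r was 0.96 and 0.91 for Cdh23 and 0.75 and 0.77 for Tmie. It was -0.11 and 0.45 for Cib2 and -0.065 and 0.24 for Ush1g. The values of r within genotypes were not tested. Ush1c had a Pearson r of 0.890 (permutation p = 0.00011, adjusted 0.0011) and a Spearman rho of 0.882 (permutation p = 0.00074, adjusted 0.00302), with an r of 0.819 without the 2 libraries farthest from the median score. Tmc1 had an r of 0.837 (permutation p = 0.0012, adjusted 0.00423) and a rho of 0.873 (permutation p = 0.00105, adjusted 0.00302), and the r was 0.983 without 2 libraries. Loxhd1 had an r of 0.830 (permutation p = 0.00127, adjusted 0.00423) and a rho of 0.909 (permutation p = 0.00022, adjusted 0.0022), and the r was 0.874 without 2 libraries. Pcdh15 had an r of 0.880 (permutation p = 0.00177, adjusted 0.00443), but its rho was 0.524 (permutation p = 0.1004, adjusted 0.126) and its r 0.505 without 2 libraries, so the relation rests on those libraries. Cib2 had an r of -0.159 (permutation p = 0.640, adjusted 0.640) and a rho of -0.045 (permutation p = 0.903, adjusted 0.903). With the score as a covariate, Cdh23 (log2 fold change -0.33, adjusted p = 0.693, limma) and Ush1c (log2 fold change -0.32, adjusted p = 0.728, limma) were lower in Atf6-/- by the unadjusted rule, against 4.12% of all genes in that fit. The score came from the same libraries and differed between genotypes in its mean.

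**Figure D5:**
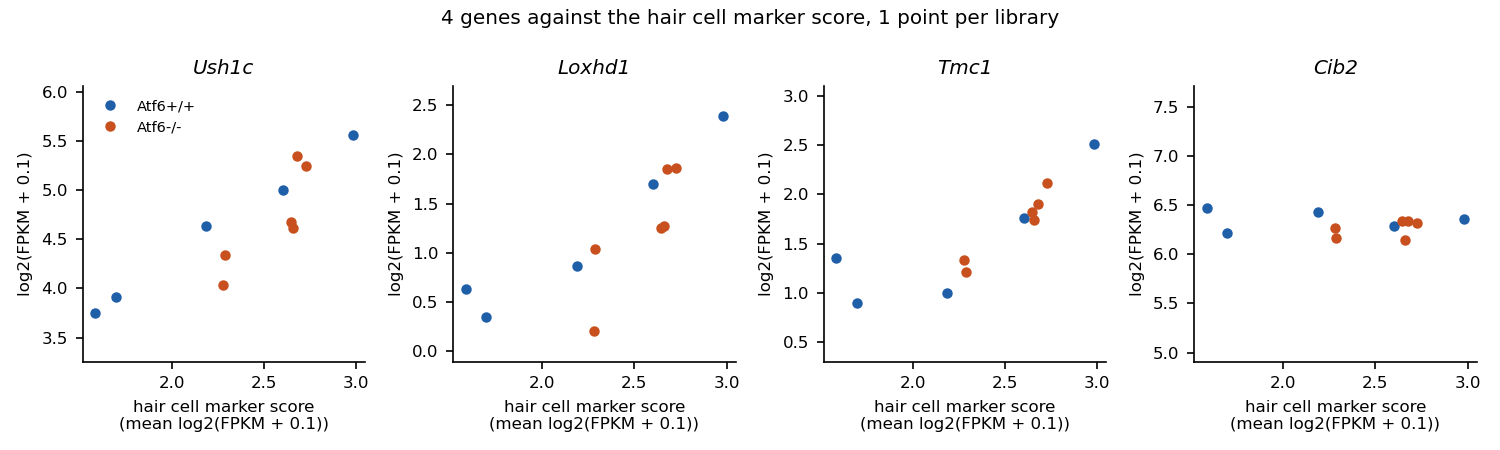
Log2(FPKM + 0.1) of 4 genes against the hair cell marker score, with 1 point per library, Atf6+/+ in blue and Atf6-/- in orange, and the same height of log2 range in each panel. Ush1c, Loxhd1 and Tmc1 rise with the score and Cib2 is flat, with r from -0.159 for Cib2 to 0.890 for Ush1c.

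The genes whose levels were most like these genes were named by the r, over 11 libraries after removal of genotype means, with the averaged profile of the 8 members at 1 FPKM or more. Among 13603 genes the median r was 0.078. The 10 highest were Espn (r = 0.952), which bundles stereociliary actin, Cdkl4 (0.940), Rcn1 (0.936), Cd164l2 (0.930), Minar2 (0.929), Cetn2 (0.923), Bricd5 (0.921), Chrna10 (0.921), a subunit of the outer hair cell acetylcholine receptor, Cabp2 (0.918), a calcium-binding protein of inner hair cell synapses, and Smpx (0.917). Espn ranged from 7.62 to 20.25 FPKM and its log2 fold change was 0.11 (adjusted p = 0.912, limma).

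In the wider hair bundle and Usher network, 26 other genes had values and 25 were tested. Their median log2 fold change was 0.16, with 17 estimates above 0 and 8 below. At the unadjusted rule 3 were higher, Tprn (0.23, adjusted p = 0.481, limma), Pdzd7 (0.17, adjusted p = 0.496) and Eps8 (0.30, adjusted p = 0.505), and 0 were lower, against 4.48% and 5.37% of all genes tested. The next highest by p was Eps8l2 (0.31, adjusted p = 0.547, limma), which ranged from 0.21 to 0.42 on leaving out 1 library and passed the unadjusted rule without Atf6+/+ replicate 1, without Atf6-/- replicate 2 and under TPM. The 4 lowest by p among genes with negative estimates were Piezo2 (-0.29), Adgrv1 (-0.22), Ptprq (-0.24) and Cib3 (-0.70). Cib3 was at 14.33 FPKM in Atf6+/+ replicate 1 and 12.05 in Atf6-/- replicate 4, but 0.09 in Atf6-/- replicate 5. Without Atf6-/- replicate 5 its log2 fold change was 0.12. Piezo2 was at -0.046 with the blood score as a covariate. Ptprq was at -0.27 with the blood score and at -0.53 with the hair cell score. With the hair cell score Ptprq was lower in Atf6-/- by the unadjusted rule, against 4.12% of all genes in that fit. The network median was 0.048 without Atf6+/+ replicate 4 and 0.24 without Atf6+/+ replicate 1, and turned to -0.034 with the blood score and -0.060 with the hair cell score. All 3 calls were lost with either score, where the log2 fold changes were 0.10 and 0.13 for Tprn, 0.17 and 0.18 for Pdzd7 and 0.13 and 0.15 for Eps8. Leaving out 1 library ended the call of Tprn in 6 of 11 fits (Atf6+/+ replicates 3 and 4, Atf6-/- replicates 2, 3, 5 and 6), of Pdzd7 in 6 (Atf6+/+ replicates 3 and 5, Atf6-/- replicates 1, 2, 4 and 5) and of Eps8 in 8 (Atf6+/+ replicates 3, 4 and 5, Atf6-/- replicates 1, 2, 3, 4 and 6). The log2 fold changes in the 11 fits were 0.15 to 0.28 for Tprn, 0.11 to 0.21 for Pdzd7 and 0.20 to 0.39 for Eps8. None of the 25 reached an adjusted p under 0.05 in limma.

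The median log2 fold change of the 16 hair cell markers was 0.25, with 13 estimates above 0 and 3 below. At the unadjusted rule 2 were higher, against 4.48% of all genes tested, both of outer hair cells: Ocm, a calcium buffer (1.16, adjusted p = 0.391, limma), and Slc26a5, the motor protein prestin (a log2 fold change of 1.197, adjusted p = 0.475, limma). Barhl1 (0.64, and 0.37 to 0.81 on leaving out 1 library) and Lmod3 (0.66, and 0.42 to 0.85) followed without passing, although Barhl1 passed without Atf6+/+ replicate 1 or 2 or Atf6-/- replicate 5 and Lmod3 without Atf6-/- replicate 2, and the estimates below 0 included Gfi1 (-0.17) and Slc7a14 (-0.0056). The marker median was 0.080 without Atf6+/+ replicate 3 and 0.51 without Atf6+/+ replicate 1, and turned to -0.016 with the blood score. With that score both calls were lost, at log2 fold changes of 0.47 for Ocm and 0.58 for Slc26a5. Values with the hair cell score as a covariate are not given for these genes, since the score contains them. Leaving out Atf6+/+ replicate 3, 4 or 5 or Atf6-/- replicate 1, 5 or 6 ended the call of Slc26a5, at 0.93 to 1.17. Among the lists for other cells, 8 of 9 supporting cell genes (median 0.22), 7 of 8 strial genes (median 0.13) and 3 of 3 spiral ligament genes (median 0.32) had estimates above 0. In contrast, 0 of 6 neuron genes (median -0.064), 0 of 3 vestibular genes (median -0.11) and 1 of 5 macrophage genes (median -0.20) did. Of the skeletal muscle genes, 2 of 5 did (median -0.28), with sums of 1.34 to 4.03 FPKM in Atf6+/+ and 0.29 to 30.83 in Atf6-/-. Ocm was at 49.82, 43.32, 16.89, 17.78 and 43.06 FPKM in Atf6+/+ and between 35.16 and 106 (median 73.4) in Atf6-/-.

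Every marker in the lists for 3 blood cell types had an estimate below 0. All 6 genes of the erythroid list were lower by the unadjusted rule, with a median log2 fold change of -1.47, and their summed level was 3182 to 30280 FPKM in the Atf6+/+ libraries against 1868 to 6097 in the Atf6-/- libraries. The neutrophil list had a median of -1.50 (3 of 7 genes lower by that rule), with sums of 247.6 to 3053 and 89.4 to 1189, and the B cell list a median of -0.76 (2 of 5 genes lower), with sums of 8.84 to 32.17 and 7.09 to 13.58. None of these list genes reached an adjusted p under 0.05 in limma. With the mean of the 3 blood scores as a covariate, the log2 fold change of Pcdh15 was 0.084 (95% interval -0.49 to 0.66, adjusted p = 0.987, limma). The part of these markers in the members' values was not tested.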

How the data were processed

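RNA-Seq libraries were made from 5 cochlea samples of Atf6+/+ mice and 6 of Atf6-/- mice. According to the submitters' processing notes, reads were aligned to GRCm39 with HISAT2 2.0.4, expression was estimated with RSEM 1.2.12 and tested with DESeq2 1.4.5. The deposited FPKM values, given with 2 decimals, were used as they stand. The study's methods state a nominal number of reads per sample, but the reads behind each value are unknown because no counts were analysed. The tables were joined by NCBI gene identifier, 0.1 was added before log2 transformation, and the 16169 genes averaging 0.1 FPKM or more were fitted with limma 3.58.1 (R 4.3.3; mean-variance trend, genotype as the only term, two-sided, Benjamini-Hochberg adjustment). Fold changes are on this scale and understate the change of low genes. Exact permutation tests enumerated 462 assignments of genotype (smallest p 0.00216), and correlations 100000 permutations. Nothing states that replicates are separate animals, so p-values measure the spread between these samples. Named genes were the members, Atf6, network and marker genes past the unadjusted rule or with the 4 smallest p in each direction, and the 10 genes most like the members, with other values given where a result turns on them. 1 marker gene that the rule names is not reported here. The members and lists were chosen with earlier results of these data known. On simulated data of 16169 genes, the fit recovered 84% of 200 genes given a log2 change of 1, and 7.18% of calls were false. Those genes were drawn from all genes tested, with independent noise. The 84% therefore does not give the power for the more variable members or for smaller changes. Alternatives were other pseudocounts, filters and scalings, a replicate block, marker scores as covariates, robust variance and leaving out each library. The other steps ran in Python 3.11.15 (scipy 1.17.1, numpy 2.4.6, pandas 2.3.3, and figures in matplotlib 3.10.9).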

Additional observations from a re-analysis of the deposited data

Results flagged for a closer look

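Of 30 groups of libraries tested for a sample far from the others, 1 was marked, and chance marks about 1 group in 20. The ratio of Tmie to Tmc1 (each FPKM + 0.1) was 2.36 in Atf6-/- replicate 2, while the other 5 Atf6-/- libraries lay between 1.56 and 1.83.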

How the results depend on the processing

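Of 875 alternative values for 46 results, 34 turned the sign of a gene or ratio. The number of members at an adjusted p under 0.05 was 0 in every alternative run. With the blood score as a covariate, the log2 fold change turned to -0.026 for Tmc1, -0.043 for Lhfpl5, -0.23 for Loxhd1 and -0.23 for Ush1c, and to 0.046 for Slc7a14. With the hair cell score it turned to -0.16 for Tmc1, -0.27 for Tmc2, -0.060 for Lhfpl5, -0.44 for Loxhd1 and -0.32 for Ush1c. In that fit 2 members were lower at the unadjusted rule, against 4.12% of all genes tested. Rescaling turned Slc7a14 to 0.051 (TPM) and 0.0063 (median of ratios), and the median over all genes was 0.043 under TPM, beside -0.013 as deposited. A pseudocount of 1 turned Ush1g to Ush1c to -0.011. The replicate numbers did not pair the libraries (r of same-numbered libraries between -0.21 and 0.12), and with the replicate block the log2 ratio of Pcdh15 to Cdh23 was 0.68 with an exact permutation p of 0.0625, the smallest that 5 pairs allow, while 0 members were called and Tprn (0.21) and Eps8 (0.30) lost their calls at nearly the same size. Leaving out 1 library gave ranges of 0.031 to 0.43 for Tmc1, 0.065 to 0.61 for Tmc2, 0.32 to 0.63 for Pcdh15, -0.23 to -0.072 for Cdh23, -0.0052 to 0.11 for Lhfpl5, -0.22 to 0.022 for Tmie, -0.15 to 0.36 for Loxhd1, -0.069 to 0.38 for Ush1c, -0.37 to -0.13 for Piezo2, -0.27 to -0.10 for Adgrv1, -0.37 to -0.027 for Ptprq, -1.08 to 0.12 for Cib3, -0.36 to 0.13 for Gfi1 and -0.076 to 0.044 for Slc7a14. The ratios ranged from 0.55 to 0.78 for Pcdh15 to Cdh23, -0.32 to 0.000726 for Lhfpl5 to Tmc1, -0.41 to -0.072 for Tmie to Tmc1 and -0.16 to 0.28 for Ush1g to Ush1c. The members at the unadjusted rule numbered 0 to 1 in each direction (Pcdh15 higher without Atf6+/+ replicate 1 or 2, Cib2 lower without Atf6+/+ replicate 4), and the correlated pairs 2 to 17. The causes were not tested. The reads behind each value are unknown.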
